A study of Homo sapiens with 6 samples.

Results

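Transcript levels of 60 genes for axon guidance ligands, their receptors and the SLITRK adhesion proteins were examined in A2058 cells with and without vitamin C. The genes were chosen by name as 17 semaphorins, 9 plexins, 2 neuropilins, 3 SLIT ligands, 3 ROBO receptors, 2 netrins, 4 netrin receptors, 7 ephrins, 9 Eph receptors and 4 SLITRKs. The choice was made with earlier results of these data known. All 60 were found among the 60675 genes of the count table. Of these, 48 had enough reads to be tested, out of 16353 genes tested in all. A2058 is an established line derived from a melanoma metastasis, so every sample is a culture of 1 cell line. The control wells (n = 3) were kept in medium that holds no vitamin C, and the treated wells (n = 3) received 0.1 mM vitamin C for 48 h with fresh medium each day. The treatment label of these wells reads 100 µM, while the general protocol text deposited with every sample, controls included, names 50 µM sodium ascorbate. RNA was depleted of ribosomal RNA and sequenced, and reads were counted per gene. The study repeated its experiments, but the sources do not say whether the sequenced wells came from 1 experiment or several, so p-values measure the spread between wells, which may be technical.

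Guidance cues steer growing axons and migrating cells, among them cells of the neural crest, from which melanocytes arise. Semaphorins bind plexins, and most class 3 semaphorins do so through a neuropilin. SLIT ligands bind ROBO receptors, and netrins bind DCC, neogenin and UNC5 receptors. Ephrins are tied to the cell surface and bind Eph receptor kinases on a neighbouring cell, with signals running into both cells. SLITRKs are membrane proteins with leucine-rich repeats like those of SLIT, and they bind receptor tyrosine phosphatases across the synapse.

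The promoters of 3 members are shown because these genes passed the test in all 6 fits that left out 1 well and had a single RefSeq start near the annotated one. The study's interest is in 5-hydroxymethylcytosine, which forms at CG sites, where C is followed by G on the same strand, so CG is in capitals. CG reads the same on both strands, and its occurrences cannot overlap one another. Each window holds the 250 bases before the RefSeq start on the gene's own strand (GRCh38.p14). SEMA5A is on the minus strand at chr5:9546076-9546325, EFNB2 on the minus strand at chr13:106535663-106535912 and SLITRK2 on the plus strand at chrX:145817579-145817828.
SEMA5A: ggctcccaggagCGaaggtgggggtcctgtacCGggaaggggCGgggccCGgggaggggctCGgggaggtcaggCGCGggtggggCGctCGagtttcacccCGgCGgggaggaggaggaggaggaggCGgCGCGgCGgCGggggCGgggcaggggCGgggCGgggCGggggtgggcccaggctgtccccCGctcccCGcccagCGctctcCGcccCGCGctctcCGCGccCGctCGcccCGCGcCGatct
EFNB2: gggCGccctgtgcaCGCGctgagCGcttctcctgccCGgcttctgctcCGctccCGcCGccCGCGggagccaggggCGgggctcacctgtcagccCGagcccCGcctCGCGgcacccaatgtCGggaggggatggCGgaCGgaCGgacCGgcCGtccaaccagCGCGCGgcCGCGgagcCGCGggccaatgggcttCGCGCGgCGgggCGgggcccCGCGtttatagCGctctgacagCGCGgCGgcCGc
SLITRK2: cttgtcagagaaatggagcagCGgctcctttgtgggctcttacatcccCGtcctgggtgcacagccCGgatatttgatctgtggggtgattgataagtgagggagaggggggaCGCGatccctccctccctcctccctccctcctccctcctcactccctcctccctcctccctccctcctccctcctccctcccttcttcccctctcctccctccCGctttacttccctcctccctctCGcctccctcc
The SEMA5A window held 33 CG sites and the EFNB2 window 40, whereas the SLITRK2 window held 7. RefSeq gave 83 such windows for 53 of the 60 members, with a median of 18 CG sites and a range of 1 to 46. All 83 held at least 1 CG site, as did 98.4% of 16280 windows of tested genes, whose median was 20. The windows of members higher with vitamin C had a median of 24 sites (6 windows of 5 genes). Those of members lower with it had 27 (15 windows of 9 genes), and those of members past neither side 17 (44 windows of 29 genes). A gene with several RefSeq starts counted once for each start, some of them far from the annotated one, so windows are not independent. Windows were not matched for SEMA3A, SEMA6A, SEMA6B, NRP1, NTN1, UNC5B and EFNB3. No measurement of DNA at these promoters was analysed here, and a CG count is a description of the sequence alone.

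Library totals ran from 16248869 to 41884588 counts in control wells and from 20944956 to 32549362 in treated wells. Vitamin C well 3 stood apart from the other treated wells: the chi-square per degree of freedom over genes was 10.7 against each of them, whereas it was 3.33 between those wells and 2.70 to 6.84 between control wells. The melanocytic and neural crest markers were all present, with summed levels of 2838 to 2943 CPM (a gene's reads scaled to library size after edgeR's TMM normalization) in control wells and 2703 to 2826 CPM in treated wells. Of these 9 markers, 5 were higher and 1 was lower with vitamin C, a share of 66.7% beside 11.2% of all genes tested. DCT, the lower one, gave the largest part of the sum and fell from 1515 ± 44.4 to 1234 ± 48.4 CPM (SD, n = 3). Among the 5 that were higher, MLANA rose from 1.54 ± 0.290 to 15.4 ± 0.671 CPM and PMEL from 89.2 ± 6.59 to 148 ± 13.6 CPM. Markers of other cell types were also read, and the part of any of them in the results below was not tested. The 7 fibroblast markers summed to 54.5 to 61.1 CPM in control and 93.8 to 109.7 CPM in treated wells, most of it from LUM, with 3 higher, while COL1A1 averaged 0.470 and 0.452 CPM. The 5 endothelial markers summed to 1.56 to 2.10 and 4.23 to 4.63 CPM, with 1 higher and CLDN5 at 0 in every well. The 5 epithelial markers summed to 61.6 to 66 and 54.0 to 57.1 CPM, with 1 lower and nearly all reads from KRT18 and KRT8. The 5 blood markers summed to 4.47 to 5.73 and 8.11 to 9.88 CPM, with 1 higher (LAPTM5) and with CD53, CD52 and TYROBP at 0 or 1 count in each well. The 5 neuronal markers summed to 4.06 to 4.99 and 3.76 to 6.49 CPM, and none of them passed the test.

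Vitamin C treatment shifted 18 of the 48 tested members past the threshold of edgeR's quasi-likelihood test (Benjamini-Hochberg adjusted p under 0.05 over all genes tested). Among the members, 6 rose and 12 fell. In bulk RNA, fewer cells of a kind and less transcript per cell cannot be told apart. The share was 37.5%, beside 11.2% of all genes tested, where 6.09% rose and 5.09% fell, and 13.4% of protein-coding genes. The members were chosen with earlier results of these data known, and SLITRK2 was picked by the study on these samples. Whether that choice bears on the share was not tested. With the comparison limited to a mean level of 5 CPM or more, a bound chosen after values were seen, 13 of 32 members (40.6%) and 13.9% of all genes passed. The median log2 fold change of the members was 0.0067, and that of all genes was -0.0037. Treated and control wells did not overlap for 32 of the 48 members, 16 higher and 16 lower, beside 30.6% of all genes. DESeq2 called 14 of the same 18 in the same direction and no other member, beside 10.3% of all genes, and left out EFNA3, EFNA4, SEMA3F and SLITRK6. The changes were mostly small: only EFNB3 and SEMA3F fell to below a log2 fold change of -1. Without vitamin C well 3, 19 members passed, 10 higher and 9 lower, and 15 of them were among the 18. That fit lost EFNA3 (adjusted p = 0.076), EFNA4 (adjusted p = 0.065) and SEMA3F (adjusted p = 0.069), and gained PLXNA1, ROBO1, SEMA3B and SLITRK5. Without control well 2, 10 members passed. The number of all genes called also changed with the well left out, as given in the last section, so these counts are not particular to the members.

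**Figure D1:**
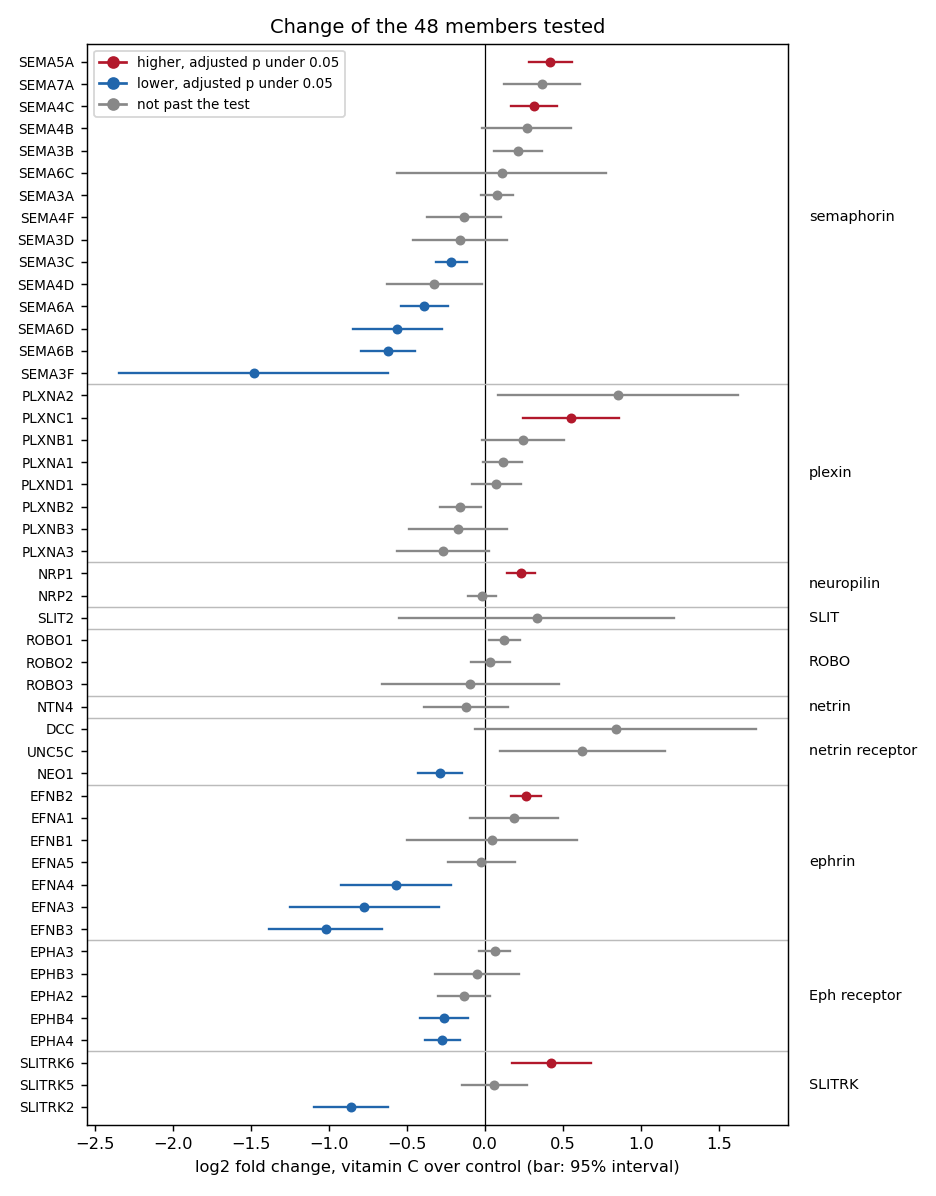
Log2 fold change (vitamin C over control) on the horizontal axis for each of the 48 tested members, grouped by family, with bars for the 95% interval of the fit and colors for the outcome of the edgeR test. The 6 higher and 12 lower members are spread over 7 of the 10 families, and SEMA3F has the widest interval among those past the test (-2.35 to -0.62).

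By role, 11 of 24 tested ligands passed (45.8%, 3 higher, 8 lower), and so did 5 of 21 tested receptors (23.8%, 2 higher, 3 lower). The share over all genes tested was 11.2%. The difference between the ligand and receptor shares was not tested. Of 3 tested SLITRKs, 1 rose and 1 fell.

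Among semaphorins, 15 of 17 were tested, 2 rose and 5 fell, a share of 46.7% beside 11.2% of all genes. The class 6 semaphorins are membrane-bound ligands, and 3 of the 4 fell, beside 5.09% of all genes. SEMA6B (ENSG00000167680, chr19:4542593-4559808) stood at 24.6, 24.2 and 24.4 CPM in control wells 1 to 3 and at 14.7, 17.5 and 15.2 CPM in vitamin C wells 1 to 3. The groups did not overlap, and the mean fell from 24.4 ± 0.175 to 15.8 ± 1.5 CPM (SD, n = 3), a log2 fold change of -0.62 (95% interval -0.79 to -0.45, edgeR adjusted p = 0.00022). SEMA6A (ENSG00000092421, chr5:116443616-116574934), a ligand of class A plexins, gave 38.5, 38.9 and 40.6 CPM in the control wells and 30.8, 31.8 and 27.0 CPM in the treated wells. All treated wells lay below all control wells, and the log2 fold change was -0.39 (95% interval -0.54 to -0.24, edgeR adjusted p = 0.0028). SEMA6D (ENSG00000137872, chr15:47184101-47774223), which binds plexin A1, gave 6.39, 6.48 and 5.51 CPM without vitamin C and 4.19, 4.59 and 3.68 CPM with it. Its groups were also apart, with a log2 fold change of -0.56 (95% interval -0.85 to -0.28, edgeR adjusted p = 0.015), but the call was lost without control well 1 (adjusted p = 0.068) or control well 2 (adjusted p = 0.066). The remaining class 6 gene, SEMA6C, was scarce at 0.557 to 0.819 CPM in control and 0.621 to 0.973 CPM in treated wells, with overlapping groups and a log2 fold change of 0.11 (95% interval -0.56 to 0.77).

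Class 3 semaphorins are secreted. SEMA3C (ENSG00000075223, chr7:80742538-80922359) had the highest mean level per exon length of all 60 members in each group, and stood at 305, 296 and 294 CPM in the control wells and 255, 268 and 247 CPM in the treated wells. The highest treated well lay below the lowest control well, and the mean fell from 298 ± 5.86 to 256 ± 10.5 CPM (SD, n = 3; log2 fold change -0.22, 95% interval -0.31 to -0.12, edgeR adjusted p = 0.0079). SEMA3F (ENSG00000001617, chr3:50155045-50189075) was scarce, with 32, 13 and 10 reads in the control wells and 6, 9 and 3 reads in the treated wells, which is 0.768, 0.484 and 0.619 CPM against 0.235, 0.274 and 0.143 CPM. The wells did not overlap and the log2 fold change was -1.48 (95% interval -2.35 to -0.62, edgeR adjusted p = 0.030). The SEMA3F call rested on few reads: it was lost whichever of the 6 wells was left out (adjusted p 0.051 to 0.17), and DESeq2 did not make it (adjusted p = 0.11). SEMA3B lies 78.5 kb from SEMA3F on chromosome 3, and its treated wells at 78.7, 87.9 and 80.4 CPM stood beside 78.7, 68.2 and 65.8 CPM in control wells. Lowest treated and highest control well met, and the log2 fold change of 0.21 did not pass (95% interval 0.06 to 0.36, adjusted p = 0.072), although it did without control well 1 (adjusted p = 0.022) or vitamin C well 3 (adjusted p = 0.037). The other class 3 genes did not pass. SEMA3A held 82.9 to 84.8 CPM in control and 88.3 to 88.5 CPM in treated wells (log2 fold change 0.08, 95% interval -0.02 to 0.18, edgeR adjusted p = 0.34). SEMA3D ran from 3.90 to 5.03 CPM in control and from 4.04 to 4.34 CPM in treated wells. SEMA3C, SEMA3E, SEMA3A and SEMA3D follow one another on chromosome 7, and SEMA3E, between SEMA3C and SEMA3A, had at most 8 reads in a well.

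The semaphorins that rose were SEMA5A and SEMA4C. SEMA5A (ENSG00000112902, chr5:9035026-9546075), a membrane-bound semaphorin with thrombospondin repeats, gave 126, 134 and 120 CPM in the control wells and 175, 180 and 151 CPM in the treated wells. No wells overlapped, and vitamin C well 3 was the lowest of the treated ones. The mean rose from 127 ± 6.75 to 169 ± 15.5 CPM (SD, n = 3), a log2 fold change of 0.42 (95% interval 0.28 to 0.56, edgeR adjusted p = 0.00095). SEMA4C (ENSG00000168758, chr2:96859716-96870757), a ligand of plexin B2, gave 28.3, 24.9 and 25.9 CPM in the control wells and 32.6, 33.4 and 32.7 CPM in the treated wells. Treated wells were all higher, by a log2 fold change of 0.31 (95% interval 0.17 to 0.46, edgeR adjusted p = 0.0089), and the call was lost without control well 2 (adjusted p = 0.059). SEMA7A, a lipid-anchored semaphorin, came nearest to the threshold of those outside it, at 9.0, 6.89 and 7.36 CPM in control and 10.1, 9.79 and 10.5 CPM in treated wells. Its groups did not overlap either, with a log2 fold change of 0.37 (95% interval 0.12 to 0.61, edgeR adjusted p = 0.053), and it passed without control well 1 (adjusted p = 0.020). SEMA4B, SEMA4D and SEMA4F did not pass, with log2 fold changes of 0.27, -0.32 and -0.14 and adjusted p of 0.23, 0.17 and 0.49. SEMA5B had at most 4 reads in any well and was not tested.

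**Figure D2:**
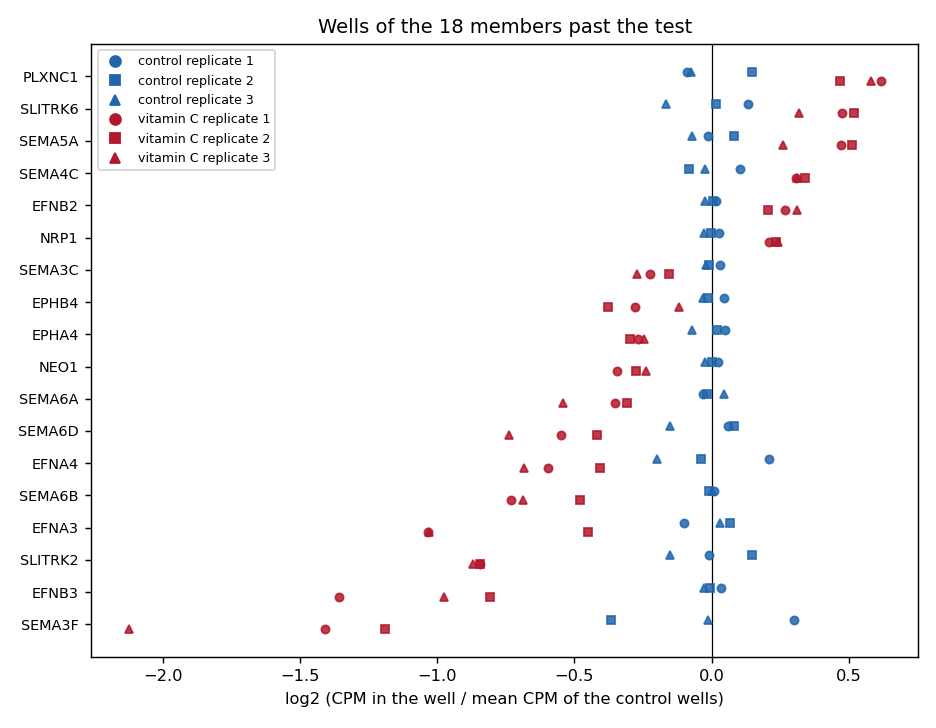
Level in each well of the 18 members past the test, as log2 of the CPM in the well over the mean CPM of the control wells, with circles, squares and triangles for replicates 1, 2 and 3 (blue, control wells; red, treated wells). For each of the 18 genes all treated wells lie on one side of all control wells, as was so for 30.6% of all genes tested. The 18 were picked by the test on these same wells, so their separation adds no support. SEMA3F, with 3 to 32 reads per well, spreads the most.

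Plexins are the signalling receptors of semaphorins, and 1 of the 8 tested rose while none fell. That share, 12.5%, was near the 11.2% of all genes tested. PLXNC1 (ENSG00000136040, chr12:94148723-94307675), the receptor of SEMA7A, gave 3.00, 3.54 and 3.03 CPM in the control wells and 4.89, 4.41 and 4.77 CPM in the treated wells. The groups were apart, with a log2 fold change of 0.55 (95% interval 0.24 to 0.86, edgeR adjusted p = 0.024). The PLXNC1 call was lost without control well 1 (adjusted p = 0.10), control well 3 (adjusted p = 0.073) or vitamin C well 1 (adjusted p = 0.068). PLXNA1, the plexin with the highest level per exon length, held 75.2 to 80.8 CPM in control and 77.6 to 86.9 CPM in treated wells, with overlap (log2 fold change 0.11, 95% interval -0.01 to 0.24, edgeR adjusted p = 0.25), and passed without vitamin C well 3 (adjusted p = 0.043). PLXNB2, the receptor of SEMA4C, ran from 43.8 to 48.9 CPM in control and from 40.4 to 43.5 CPM in treated wells. Its groups did not overlap, but its log2 fold change of -0.16 did not pass (95% interval -0.29 to -0.03, edgeR adjusted p = 0.12). PLXNA2 had 9 to 17 reads per control well and 19 to 21 per treated well, and its log2 fold change of 0.85 did not pass (95% interval 0.08 to 1.62, edgeR adjusted p = 0.15). PLXNA3, PLXNB1, PLXNB3 and PLXND1 had log2 fold changes of -0.27, 0.24, -0.18 and 0.07 with adjusted p of 0.24, 0.24, 0.50 and 0.58. PLXNA4 had at most 10 reads in a well and was not tested.

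Both neuropilins were abundant, and NRP1 passed the test while NRP2 did not. NRP1 (ENSG00000099250, chr10:33177492-33336262), a co-receptor for SEMA3A and for vascular endothelial growth factor, gave 247, 242 and 238 CPM in the control wells and 280, 286 and 287 CPM in the treated wells. Treated and control wells were well apart, and the mean rose from 242 ± 4.64 to 284 ± 3.52 CPM (SD, n = 3; log2 fold change 0.23, 95% interval 0.14 to 0.32, edgeR adjusted p = 0.0031). NRP2, which serves other class 3 semaphorins such as SEMA3F, gave 398, 396 and 379 CPM in the control wells and 381, 388 and 387 CPM in the treated wells. These overlapped, and the interval of its log2 fold change of -0.02 ran from -0.11 to 0.07 (edgeR adjusted p = 0.82). Within a well, the count of NRP1 over that of NRP2 does not depend on how libraries are scaled, and it was 0.621, 0.613 and 0.628 in control wells and 0.735, 0.736 and 0.741 in treated wells. The ratio was higher in all 3 treated wells (exact permutation test, two-sided p = 0.1, the smallest that 3 against 3 wells allow). This pair was chosen after the values were seen, so the test adds no support to the NRP1 change.

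In the SLIT, ROBO and netrin branches, 1 of the 6 tested receptors and neither of the tested ligands passed, beside 11.2% of all genes. SLIT2 was the only SLIT ligand tested, with 5 to 28 reads per control well and 9 to 25 per treated well, and a log2 fold change of 0.33 with a wide interval (-0.55 to 1.21, edgeR adjusted p = 0.67). SLIT1 had at most 4 reads and SLIT3 at most 8 in a well. Their receptor ROBO1 was abundant, at 248, 271 and 270 CPM in control and 291, 287 and 281 CPM in treated wells. No wells overlapped for ROBO1, but its log2 fold change of 0.12 did not pass (95% interval 0.02 to 0.23, edgeR adjusted p = 0.11), although it did without vitamin C well 3 (adjusted p = 0.046). ROBO2 ran from 34.6 to 35.6 CPM in control and from 35.6 to 36.5 CPM in treated wells (log2 fold change 0.03, 95% interval -0.09 to 0.16, edgeR adjusted p = 0.77). ROBO3 held 0.821 to 1.19 CPM over all wells (log2 fold change -0.10, 95% interval -0.66 to 0.47, edgeR adjusted p = 0.87).

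NEO1 (ENSG00000067141, chr15:73051710-73305206) encodes neogenin, a receptor of netrins and of repulsive guidance molecules. It gave 27.3, 26.8 and 26.4 CPM in the control wells and 21.1, 22.1 and 22.7 CPM in the treated wells. All treated wells were lower, by a log2 fold change of -0.29 (95% interval -0.43 to -0.15, edgeR adjusted p = 0.013), and the call was lost without control well 1 (adjusted p = 0.057) or control well 2 (adjusted p = 0.051). The other tested netrin receptors were scarce and lay on the higher side without passing. Once scaled by depth, the treated wells of both lay above all control wells. UNC5C had 14 to 59 reads per control well and 38 to 62 per treated well (log2 fold change 0.62, 95% interval 0.09 to 1.15, edgeR adjusted p = 0.13). DCC had 4 to 15 and 10 to 20 reads (log2 fold change 0.84, 95% interval -0.06 to 1.74, edgeR adjusted p = 0.23). The netrin NTN4 held 4.58 to 4.89 CPM in control and 4.23 to 4.38 CPM in treated wells, a log2 fold change of -0.12 that did not pass (95% interval -0.39 to 0.15, edgeR adjusted p = 0.59). NTN1 had at most 2 reads and UNC5B at most 3 in a well.

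**Figure D3:**
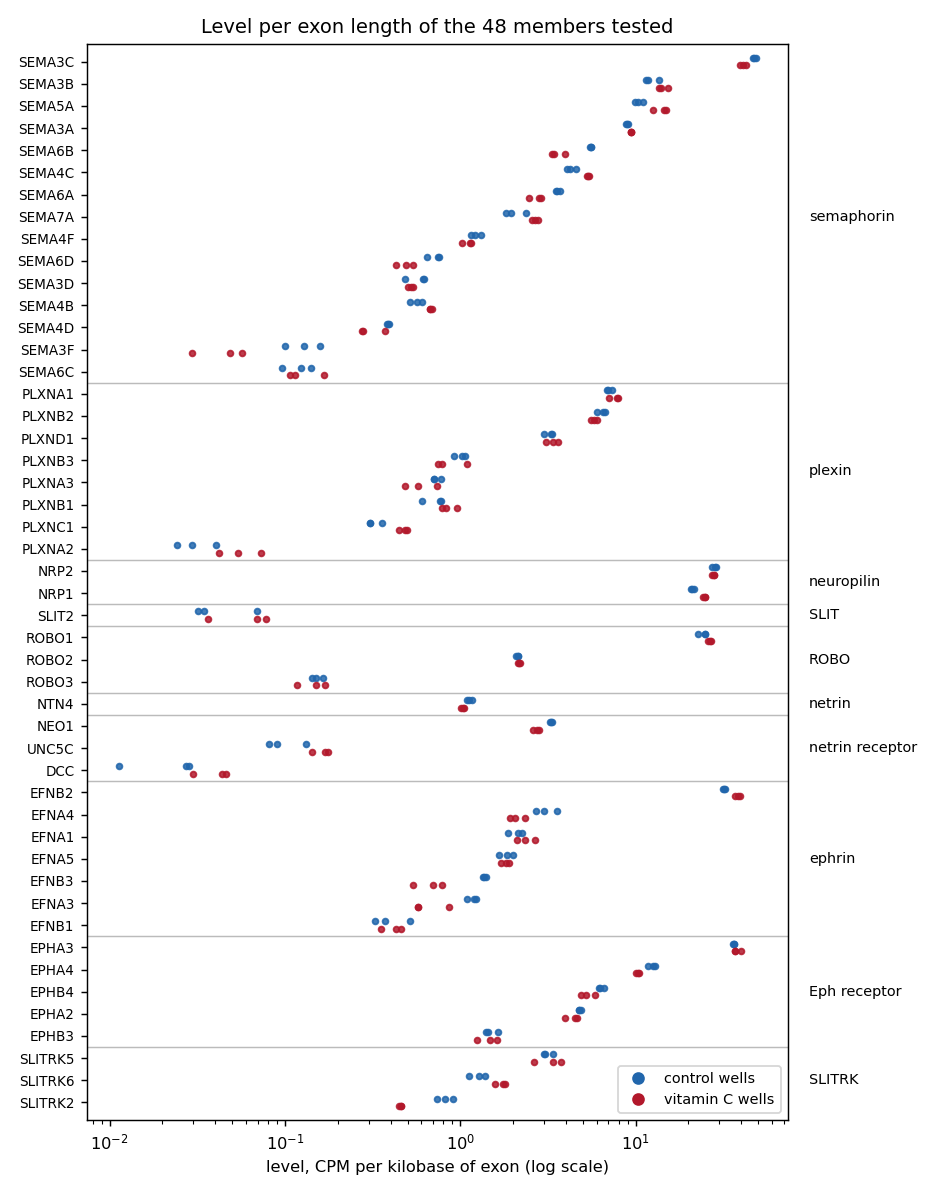
Level of each of the 48 tested members in each well, as CPM per kilobase of exon on a log axis, ordered within families by the control mean, with control wells in blue and vitamin C wells in red. SEMA3C, EPHA3 and EFNB2 stand highest, and SLIT2, PLXNA2 and DCC lie below 0.1 CPM per kilobase.

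All 7 ephrins were tested, and 1 rose and 3 fell, a share of 57.1% beside 11.2% of all genes. EFNB2 (ENSG00000125266, chr13:106489731-106535662), a transmembrane ephrin known for its part in blood vessel formation, gave 162, 161 and 158 CPM in the control wells and 193, 185 and 199 CPM in the treated wells. All treated wells were above all control wells, and the mean rose from 160 ± 2.23 to 192 ± 7.15 CPM (SD, n = 3; log2 fold change 0.26, 95% interval 0.16 to 0.36, edgeR adjusted p = 0.0022). Of the exon bases of EFNB2, 26.2% overlap another gene on the opposite strand, and reads of the pair may be mixed, since the sources do not state a strand setting. EFNB3 (ENSG00000108947, chr17:7705202-7711378), another transmembrane ephrin, moved the other way, with 4.51, 4.39 and 4.33 CPM in the control wells and 1.72, 2.52 and 2.24 CPM in the treated wells. Its read counts were 188, 118 and 70 against 44, 83 and 47, and the groups did not overlap once scaled by depth. EFNB3 fell from 4.41 ± 0.0928 to 2.16 ± 0.407 CPM (SD, n = 3; log2 fold change -1.02, 95% interval -1.38 to -0.66, edgeR adjusted p = 0.0015). The ratio of EFNB2 to EFNB3 counts within a well was 35.9, 36.6 and 36.4 in control wells and 112, 73.2 and 88.7 in treated wells. It was higher in all 3 treated wells (exact permutation test, two-sided p = 0.1, the smallest possible here), and vitamin C well 1 lay the highest. The pair was chosen after the values were seen, and each gene already separated the groups, in opposite directions. The outcome of this test was therefore fixed, and it adds no support. The third transmembrane ephrin, EFNB1, had 20 to 47 reads per well, with overlapping groups and a log2 fold change of 0.04 (95% interval -0.50 to 0.59, edgeR adjusted p = 0.94).

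The A ephrins are lipid-anchored ligands, and those on chromosome 1 lie side by side. EFNA4 (ENSG00000243364, chr1:155063731-155069553) gave 4.51, 3.80 and 3.40 CPM in the control wells and 2.58, 2.95 and 2.43 CPM in the treated wells. Its treated wells were all lower, by a log2 fold change of -0.57 (95% interval -0.92 to -0.22, edgeR adjusted p = 0.039), yet the call was lost whichever of the 6 wells was left out (adjusted p 0.052 to 0.20). EFNA3 (ENSG00000143590, chr1:155078872-155087538), 9.3 kb further on, gave 2.09, 2.35 and 2.29 CPM in the control wells and 1.10, 1.64 and 1.10 CPM in the treated wells. Its groups were apart, with a log2 fold change of -0.77 (95% interval -1.25 to -0.29, edgeR adjusted p = 0.040). The EFNA3 call held when vitamin C well 2 was left out (adjusted p = 0.030) and was lost when any of the other wells was (adjusted p 0.076 to 0.12). DESeq2 made neither call (adjusted p = 0.082 for EFNA4 and 0.074 for EFNA3). A readthrough gene on the same strand shares 15.0% of the exon bases of EFNA4 and 44.7% of those of EFNA3, so reads may have been assigned to neither, and both values carry that uncertainty. EFNA1, 39.9 kb beyond EFNA3, held 4.77 to 5.74 CPM in control and 5.35 to 6.78 CPM in treated wells (log2 fold change 0.19, 95% interval -0.10 to 0.47, edgeR adjusted p = 0.41). EFNA5, on another chromosome, had a log2 fold change of -0.03 (95% interval -0.24 to 0.19, edgeR adjusted p = 0.91).

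**Figure D4:**
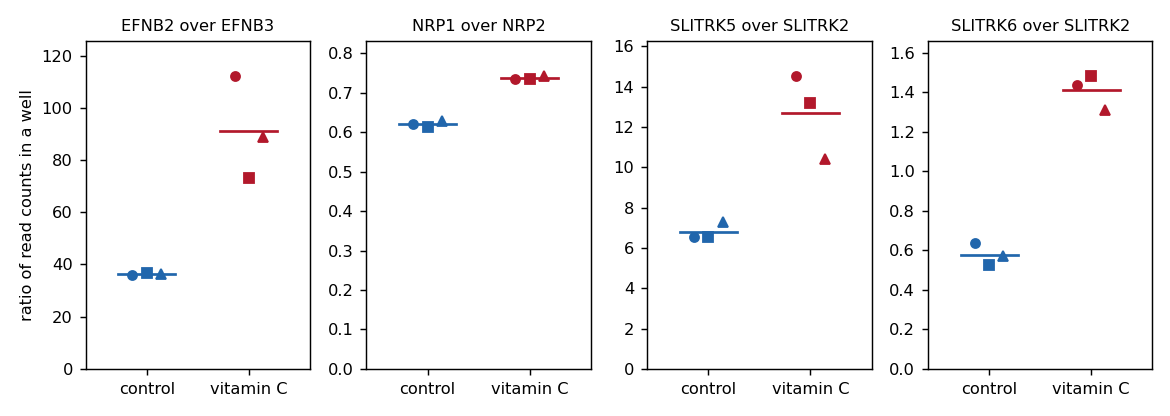
Ratios of read counts of 2 members within each well on a linear axis from 0, for 3 control and 3 vitamin C wells, with bars at the group means and circles, squares and triangles for replicates 1, 2 and 3. In each panel all treated wells lie above all control wells, from 36.3 to 91.3 on average for EFNB2 over EFNB3 and from 0.621 to 0.738 for NRP1 over NRP2. The pairs were chosen after the values were seen. For EFNB2 over EFNB3 and SLITRK6 over SLITRK2 the separation was fixed by that of the single genes.

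Of 9 Eph receptors, the kinases that ephrins bind, 5 were tested, 2 fell and none rose. That share was 40.0%, beside 11.2% of all genes tested. EPHA4 (ENSG00000116106, chr2:221418027-221574202), which binds ephrins of both classes, gave 97.0, 95.2 and 89.4 CPM in the control wells and 78.0, 76.4 and 79.1 CPM in the treated wells. The groups did not overlap, and the mean fell from 93.9 ± 3.97 to 77.8 ± 1.39 CPM (SD, n = 3; log2 fold change -0.27, 95% interval -0.38 to -0.16, edgeR adjusted p = 0.0037). EPHB4 (ENSG00000196411, chr7:100802565-100827521), the main receptor of ephrin B2, gave 42.2, 40.5 and 40.0 CPM in the control wells and 33.7, 31.5 and 37.7 CPM in the treated wells. Its treated wells were all lower, by a log2 fold change of -0.26 (95% interval -0.41 to -0.11, edgeR adjusted p = 0.030), and vitamin C well 3 was the nearest to the controls. Without that well the log2 fold change was -0.33 (adjusted p = 0.0020), and the call was lost when any of the other 5 wells was left out (adjusted p 0.070 to 0.14). The ligand EFNB2 rose and its receptor EPHB4 fell in the same wells. EPHA3, the Eph receptor with the highest level per exon length, gave 240, 244 and 242 CPM in the control wells and 245, 265 and 246 CPM in the treated wells. Its groups lay close together, and the log2 fold change of 0.06 did not pass (95% interval -0.04 to 0.16, edgeR adjusted p = 0.44). EPHA2 ran from 19.7 to 20.2 CPM in control and from 16.6 to 19.2 CPM in treated wells (log2 fold change -0.13, 95% interval -0.30 to 0.03, edgeR adjusted p = 0.31). EPHB3 held 5.67 to 7.47 CPM over all wells (log2 fold change -0.05, 95% interval -0.32 to 0.22, edgeR adjusted p = 0.85). EPHA7, EPHB1 and EPHB2 had at most 9 reads in a well, and EPHB6 had 0 in all 6 wells, which allows up to 0.0716 to 0.185 CPM per well (3 reads of each library total, counting error only). That limit holds only if the authors' counting could assign reads to EPHB6, which was not tested.

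SLITRK2 (ENSG00000185985, chrX:145817832-145829856) had the lowest adjusted p of all members together with SEMA6B. The study had already picked it out on these same samples, so its change here is not independent evidence. The paper also reported a fall of SLITRK2 by qRT-PCR, smaller than its own value from sequencing. It gave 9.70, 10.8 and 8.79 CPM in the control wells and 5.44, 5.44 and 5.35 CPM in the treated wells. The treated wells lay close together and far below the controls, with a mean of 5.41 ± 0.0542 CPM against 9.76 ± 1.01 CPM (SD, n = 3; log2 fold change -0.86, 95% interval -1.10 to -0.62, edgeR adjusted p = 0.00022). SLITRK6 (ENSG00000184564, chr13:85792787-85806683) moved the other way, at 6.17, 5.70 and 5.01 CPM in the control wells and 7.83, 8.05 and 7.02 CPM in the treated wells. Its wells did not overlap either, with a log2 fold change of 0.42 (95% interval 0.17 to 0.68, edgeR adjusted p = 0.033). The SLITRK6 call was lost without control well 2 (adjusted p = 0.097), control well 3 (adjusted p = 0.12), vitamin C well 1 (adjusted p = 0.080) or vitamin C well 2 (adjusted p = 0.12), and DESeq2 did not make it (adjusted p = 0.057). SLITRK5, 1865.9 kb from SLITRK6 on chromosome 13, was the most abundant SLITRK, at 63.6, 70.9 and 64.0 CPM in control and 78.9, 71.8 and 55.8 CPM in treated wells. Vitamin C well 3 was the lowest of all 6, the groups overlapped, and the log2 fold change was 0.06 (95% interval -0.15 to 0.27, edgeR adjusted p = 0.76). Without that well it was 0.19 and passed (adjusted p = 0.047). The ratio of SLITRK6 to SLITRK2 counts was 0.636, 0.528 and 0.570 in control wells and 1.44, 1.48 and 1.31 in treated wells, so SLITRK6 had fewer reads than SLITRK2 in every control well and more in every treated well. The ratio of SLITRK5 to SLITRK2 was 6.80 ± 0.419 in control and 12.7 ± 2.08 in treated wells (SD, n = 3), again without overlap. Both ratios gave an exact permutation p of 0.1 (two-sided), the smallest possible. The pairs were chosen after the values were seen, so these tests add no support. For SLITRK6 over SLITRK2 the outcome was fixed, since both genes separated the groups in opposite directions. SLITRK4 had at most 8 reads in a well and was not tested.

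Compared per exon length, in CPM per kilobase of the joined exons of all annotated isoforms, the order of the most abundant members was nearly kept. In control wells SEMA3C came first (47.5 ± 0.936), followed by EPHA3 (36.2 ± 0.319), EFNB2 (31.9 ± 0.445), NRP2 (28.1 ± 0.739), ROBO1 (24.2 ± 1.21) and NRP1 (21.0 ± 0.403; SD, n = 3 for each). With vitamin C, SEMA3C stood at 40.9 ± 1.68, EFNB2 at 38.3 ± 1.42 and EPHA3 at 37.8 ± 1.66, and the ranges of all 3 overlapped, with EFNB2 above SEMA3C in vitamin C well 3. Below the first 6, EPHA4 came next in control wells (12.4 ± 0.526), whereas with vitamin C SEMA3B (14.3 ± 0.851) and SEMA5A (13.98 ± 1.28) stood above EPHA4 (10.3 ± 0.184). EPHA4 and SEMA3B (12.3 ± 1.19) were within their spread of each other in control wells. SEMA5A, which rose, and SEMA6B, which fell, gave a within-well count ratio of 5.18 ± 0.304 in control and 10.7 ± 1.04 in treated wells. All ratios were chosen after the values were seen. For SEMA5A over SEMA6B the separation was fixed by that of the single genes, so it adds no support.

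**Figure D5:**
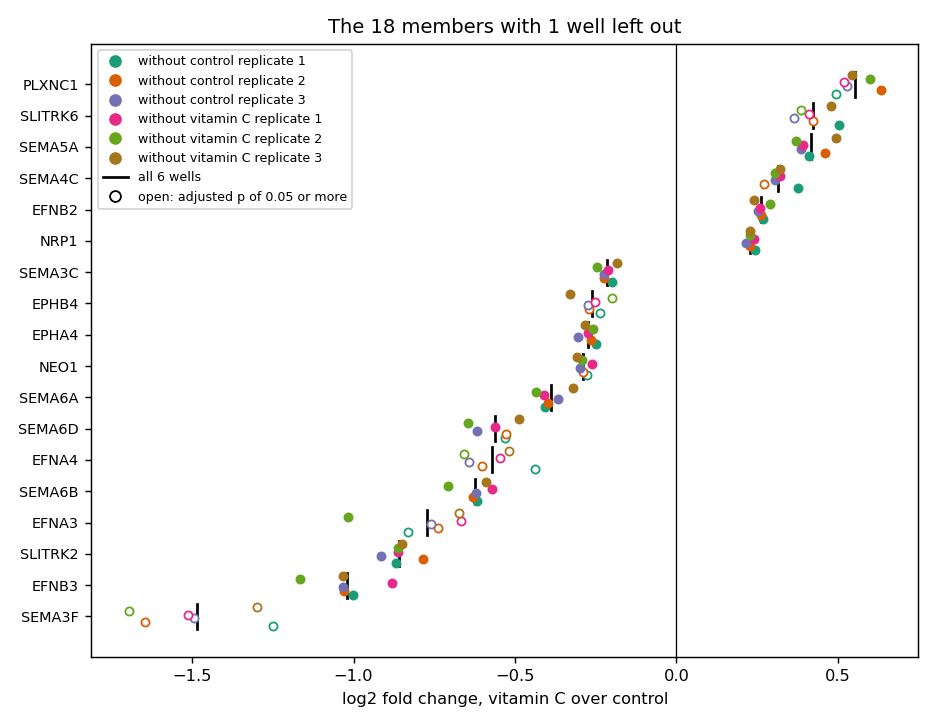
Log2 fold change (vitamin C over control) of the 18 members past the test when each of the 6 wells was left out in turn, with a color for each well left out, a black tick for the fit on all 6 wells and open circles where the adjusted p was 0.05 or more. All points keep their sign, which was all but fixed, since no treated well of these genes overlapped a control well. Closed circles run throughout for 9 members, and open circles throughout for SEMA3F and EFNA4.

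When each well was left out in turn, 9 of the 18 members passed in all 6 fits: SEMA3C, SEMA5A, SEMA6A, SEMA6B, NRP1, EFNB2, EFNB3, EPHA4 and SLITRK2. The share of all called genes that passed in all 6 fits was not counted, so whether 9 of 18 is usual was not tested. The log2 fold changes of these 9 members kept their sign in each of these fits, which was all but fixed, since their wells did not overlap between groups. SLITRK2 ran from -0.91 to -0.78, EFNB3 from -1.17 to -0.88, SEMA6B from -0.71 to -0.57 and SEMA5A from 0.37 to 0.49. The smaller changes moved within narrow bounds: NRP1 ran from 0.22 to 0.24 and EFNB2 from 0.24 to 0.29.

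Of 22 relatives of the same families outside the 60 genes, 8 had enough reads to be tested, 2 rose and 1 fell, a share of 37.5% beside 11.2% of all genes. This list and those that follow were also chosen with earlier results of these data known. The Eph receptor EPHA5 rose from 6.61 ± 0.810 to 9.74 ± 0.957 CPM (SD, n = 3; log2 fold change 0.55, edgeR adjusted p = 0.010). NTNG2, a membrane-anchored netrin relative, fell from 7.30 ± 0.170 to 5.62 ± 0.166 CPM (log2 fold change -0.37, edgeR adjusted p = 0.039). NTNG1 rose on few reads, 7, 6 and 1 in control and 11, 13 and 18 in treated wells (log2 fold change 1.69, edgeR adjusted p = 0.044).

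Of 59 cytoplasmic effectors of guidance receptors, 55 were tested, 6 rose and 5 fell, a share of 20.0% beside 11.2% of all genes. ABLIM1, an actin-binding protein, fell from 34.1 ± 1.62 to 19.8 ± 1.08 CPM (SD, n = 3; log2 fold change -0.78, edgeR adjusted p = 1.2e-05). DPYSL5, of the collapsin response mediator family that acts downstream of semaphorins, fell from 5.02 ± 0.424 to 1.78 ± 0.348 CPM (log2 fold change -1.49, edgeR adjusted p = 0.00010). FES, a tyrosine kinase bound by plexin A1, rose from 15.7 ± 0.421 to 25.4 ± 1.29 CPM (log2 fold change 0.69, edgeR adjusted p = 4.4e-05). LIMK1, a kinase of cofilin, rose from 25.4 ± 0.383 to 33.4 ± 1.06 CPM (log2 fold change 0.40, edgeR adjusted p = 0.0011). The median log2 fold change of the tested effectors was 0.016, beside -0.0037 for all genes.

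A further list of 29 genes held leucine-rich repeat adhesion proteins and binding partners of these or of SLITRKs. Of the 29, 18 were tested, none rose and 4 fell, a share of 22.2% beside 11.2% of all genes. ADGRL1, a latrophilin receptor, fell from 31.3 ± 0.680 to 21.0 ± 1.5 CPM (SD, n = 3; log2 fold change -0.57, edgeR adjusted p = 0.00017). FLRT2, which binds latrophilins and UNC5 receptors, fell from 120 ± 2.55 to 95.7 ± 1.26 CPM (log2 fold change -0.33, edgeR adjusted p = 0.00048). PTPRF, a receptor tyrosine phosphatase, fell from 48.3 ± 2.46 to 37.5 ± 2.07 CPM (log2 fold change -0.37, edgeR adjusted p = 0.0022). LINGO1 fell on few reads, 28, 32 and 12 in control and 6, 10 and 5 in treated wells (log2 fold change -1.70, edgeR adjusted p = 0.012). The median log2 fold change over the 18 was -0.26.

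Of 18 co-receptors and shedding enzymes, 15 were tested, 3 rose and 3 fell, a share of 40.0% beside 11.2% of all genes. KDR and FLT1, receptors of vascular endothelial growth factors that neuropilins assist, both rose. KDR went from 6.59 ± 0.425 to 12 ± 0.444 CPM (SD, n = 3; log2 fold change 0.87, edgeR adjusted p = 7.0e-05). FLT1 went from 88.5 ± 2.32 to 117 ± 2.86 CPM (log2 fold change 0.40, edgeR adjusted p = 0.00013). The adhesion proteins CHL1 and NRCAM, which associate with neuropilins, moved apart. CHL1 rose from 54.9 ± 1.23 to 73.2 ± 1.96 CPM (log2 fold change 0.41, edgeR adjusted p = 0.00021), and NRCAM fell from 74.9 ± 5.70 to 53.3 ± 3.93 CPM (log2 fold change -0.49, edgeR adjusted p = 0.00047).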

How the data were processed

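RNA-seq of 3 control and 3 vitamin C wells of A2058 cells was analyzed. The authors deposited raw counts, 1 whole number per gene and well, made with STAR and HTSeq against GENCODE v19 according to the paper. CASAVA 1.4, Trim Galore, STAR and hg38 stand in the submitters' processing notes, with the strand setting not given in the sources used here. Symbols, coordinates (GRCh38) and exon lengths came from GENCODE 29, which matched 57055 of 60675 rows and all 60 members, and promoters from RefSeq.

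The test was that of edgeR 4.0.16 in R 4.3.3 (filterByExpr, TMM, quasi-likelihood test, no covariate), fitted on all 16353 genes that passed the filter, with calls at an adjusted p (Benjamini-Hochberg) under 0.05. CPM are TMM-scaled. The common biological coefficient of variation was 0.0624. Scripts were tested on simulated data. DESeq2 1.42.0 and limma-voom (limma 3.58.1), other scalings, filters and thresholds, a replicate block and leaving out each well were run as alternatives. Exact permutation tests (scipy 1.17.1) were used for ratios. Intervals cover 95%.

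Every called member is named with its values in each well. Of the others, those near the threshold or of high level are named, and from each related list up to 4 genes with the smallest p. Members and lists were chosen with earlier results of these data known. Library totals set the precision: 16248869 counts in the shallowest well, where 3 reads are 0.185 CPM.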

Additional observations from a re-analysis of the deposited data

How the results depend on the processing

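The number of members past the test, 18 with all wells, ran from 17 to 20 under RLE, upper quartile or library size scaling, no filter or at least 10 counts in every library, and limma-voom. It was 14 with DESeq2, beside 10.3% of all genes. The shares of all genes under the other scalings and filters and limma-voom are not given here. Those of the 18 that were tested kept their direction in each of these and in every fit that left out a well. For the latter this was all but fixed, since no treated well of these genes overlapped a control well, so it adds no support. At an adjusted p under 0.01, 10 members (6 lower) and 795 of all genes passed, and at 0.10, 20 members and 2763 genes, beside 1829 at 0.05. With 1 well left out, 10 to 19 members passed (4 to 10 higher, 6 to 9 lower), and 964 to 2095 of all genes. The counts without control wells 1, 2 and 3 were 13, 10 and 12 members, and without vitamin C wells 1, 2 and 3 they were 12, 14 and 19. Of all members, 6 changed sign in such a fit (SLITRK5, EPHB3, ROBO3, SEMA6C, EFNA5 and EFNB1), none of them past the test there. The cause of these differences was not tested, other than that fewer wells entered. Equal replicate numbers did not mark shared wells in any source: deviations from the group means correlated by 0.123, -0.0237 and 0.0915 between same-numbered wells, and not every well correlated best with its own number. With the replicate block, 19 members passed (7 higher, 12 lower), with SEMA7A added, and 1913 of all genes. Reads were few for SEMA3F, SLIT2, PLXNA2, DCC and the 12 members not tested, which had no more than 10 reads in any well. Whether the 12 were silent or missed at this depth was not tested.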
